A study of Homo sapiens with 12 samples.

Results

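The transcripts of 9 genes whose products make nitric oxide or reactive oxygen species were followed in RT4, an established cell line from a human bladder tumour. They are NOS2, CYBA, CYBB, NOXO1, NOX1, DUOX1, DUOX2, DUOXA1 and DUOXA2. The 9 genes were matched by symbol among the 61860 genes of one deposited count table and the 62700 genes of another. They were chosen with their values in both experiments known, so their levels and fold changes are given as a description, with no test.

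RNA of RT4 cells was sequenced in 2 experiments with 3 libraries per group. In the first, cells in McCoy's 5A medium with serum were given a plasmid for Flag-tagged ITGB4, an integrin beta subunit of epithelial cells, and the controls an empty vector. In the second, cells in MEM with serum were a cisplatin-resistant RT4 line labelled as treated with cisplatin, a DNA-crosslinking drug, and parental RT4 cells labelled as treated with PBS. Resistance and the labelled cisplatin treatment thus fall together and cannot be told apart, and resistance below stands for both. No dose or time is given, all 4 groups come from the same line, and nothing says whether the resistant line is 1 clone or whether replicates are separate cultures. In both arms of the first experiment the group labels of libraries 2 and 3 name ITGB5 and ITGB6, while their titles name ITGB4.

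Libraries held 22701466 to 33352045 counts each in the ITGB4 experiment and 31824582 to 38199946 in the resistance experiment. ITGB4 was 1.64-fold higher with its plasmid than with the vector (log2 fold change 0.71 ± 0.026, the ± being its size over the square root of the F statistic, approximating a standard error; edgeR, adjusted p = 2.22e-13) and 1.40-fold higher in resistant than in parental cells (0.48 ± 0.033; adjusted p = 1.45e-09). The 12 urothelial and epithelial markers summed to 6655 to 7110 CPM in plasmid libraries and 5003 to 5188 CPM in vector libraries, and to 7809 to 9021 CPM in resistant libraries and 7432 to 7514 CPM in parental libraries, with none at 0 in any group. Abundant keratins weigh most in these sums, and the markers moved both ways. Of the 11 tested, 6 were called higher and 3 lower with the plasmid, and 5 higher and 4 lower in resistant cells. With the plasmid KRT8 stood at 1351 against 803 CPM and UPK2 at 3.34 against 6.41 CPM. Of 14 phagocyte and leukocyte markers, 13 were below 1 CPM in every group, among them SPI1, AIF1 and TYROBP at 0 in all 12 libraries. The other was ITGAM, at 14.0 CPM with the plasmid against 21.9 CPM with the vector, and at 14.9 CPM in resistant against 21.6 CPM in parental cells. The 8 fibroblast markers summed to 24.6 to 26.2 CPM with the plasmid against 48.3 to 52.2 CPM with the vector, and to 4.48 to 5.85 CPM in resistant against 12.1 to 12.2 CPM in parental cells, and the 6 endothelial markers to at most 2.56 CPM in any library. The fibroblast sum was mostly COL3A1 in the first experiment (18.1 against 45.9 CPM), while COL1A1 went the other way (6.88 against 4.04 CPM). In the second it was mostly COL1A1 (4.66 against 11.7 CPM), while COL3A1 was higher in resistant cells (0.386 against 0.0558 CPM). Of the 8, 6 were below 1 CPM in both groups of the first experiment and 7 in those of the second. The part of these differences in the results was not tested. In bulk RNA, fewer cells expressing a gene and less RNA of it per cell cannot be told apart.

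Nitric oxide synthases oxidise arginine to nitric oxide. NOS2 is the inducible form, made after inflammatory cytokines in macrophages and in many epithelia. NADPH oxidases pass electrons across a membrane to oxygen: NOX1 and CYBB (also called NOX2) are catalytic subunits that need CYBA (p22phox) as a membrane partner, and NOXO1 is the cytosolic organiser of NOX1. The dual oxidases DUOX1 and DUOX2 release hydrogen peroxide at the apical face of epithelia and the thyroid, and each needs its maturation factor, DUOXA1 or DUOXA2, to leave the endoplasmic reticulum.

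The 4 DUOX genes lie next to one another on chromosome 15 and were read as a unit, so their promoters are shown first. In GENCODE 29 on GRCh38, DUOX2 spans chr15:45092650-45114344 on the minus strand, DUOXA2 chr15:45114321-45118421 on the plus strand, DUOXA1 chr15:45117367-45129938 on the minus strand and DUOX1 chr15:45129933-45165576 on the plus strand. Each oxidase thus stands head to head with a maturation factor. By RefSeq on GRCh38.p14 the start sites of DUOX2 and DUOXA2 are 154 bases apart, and those of DUOXA1 and DUOX1 are 115 bases apart. RefSeq also gives DUOXA1 a start site further inside the gene, 6951 bases from that of DUOX1, whose window shares no base with the DUOX1 window.

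The windows below run from 250 bases before to 50 bases after each RefSeq start site, 5′ to 3′ on the gene's own strand, and capitals mark matches to TATAAA on either strand. They are chr15:45114076-45114375 (plus) for DUOXA2, chr15:45114123-45114422 (minus) for DUOX2, chr15:45129744-45130043 (plus) for DUOX1 and chr15:45129830-45130129 (minus) for DUOXA1, at the start site nearest to DUOX1.
DUOXA2: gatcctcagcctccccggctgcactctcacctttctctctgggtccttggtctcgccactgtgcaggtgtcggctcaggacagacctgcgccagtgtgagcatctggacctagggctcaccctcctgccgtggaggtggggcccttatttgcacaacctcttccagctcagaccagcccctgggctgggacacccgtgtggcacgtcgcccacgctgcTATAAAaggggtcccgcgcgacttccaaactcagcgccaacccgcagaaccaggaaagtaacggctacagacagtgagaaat
DUOX2: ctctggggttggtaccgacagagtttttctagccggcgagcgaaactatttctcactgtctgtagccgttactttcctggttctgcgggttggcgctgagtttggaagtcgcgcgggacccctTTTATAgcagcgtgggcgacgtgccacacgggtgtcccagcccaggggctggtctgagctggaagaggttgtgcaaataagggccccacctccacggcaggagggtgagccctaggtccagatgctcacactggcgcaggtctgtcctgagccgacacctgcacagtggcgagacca
DUOX1: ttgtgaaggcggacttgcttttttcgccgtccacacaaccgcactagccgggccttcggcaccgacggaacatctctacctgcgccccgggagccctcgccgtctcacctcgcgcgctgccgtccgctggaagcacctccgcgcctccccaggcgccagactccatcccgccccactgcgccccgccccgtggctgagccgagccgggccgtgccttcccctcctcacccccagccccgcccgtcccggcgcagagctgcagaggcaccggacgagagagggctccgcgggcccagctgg
DUOXA1: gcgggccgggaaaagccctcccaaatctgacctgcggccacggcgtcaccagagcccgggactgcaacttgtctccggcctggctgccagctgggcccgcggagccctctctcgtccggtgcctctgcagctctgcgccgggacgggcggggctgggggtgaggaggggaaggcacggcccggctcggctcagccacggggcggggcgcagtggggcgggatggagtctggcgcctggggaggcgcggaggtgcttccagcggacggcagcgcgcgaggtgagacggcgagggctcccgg

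The DUOX2 and DUOXA2 windows share 253 bases and the DUOX1 and DUOXA1 windows 214 bases, each pair read from opposite strands. The pair of DUOX1 and DUOXA1 was the richer in G and C, at 73.0% and 75.3%, with 35 and 33 CpG dinucleotides. The pair of DUOX2 and DUOXA2 held 60.3% and 61.3% G and C, with 18 and 15 CpG. TATAAA stood at bases -32 to -27 from the DUOXA2 start on its own strand. That same site is the capitals in the DUOX2 window, where it runs on the opposite strand at bases -127 to -122. Of 35116 RefSeq promoter windows of this length, 11.5% held TATAAA on either strand. TTCNNNGAA, the core bound by STAT dimers (7.66% of windows), the interferon-stimulated response element, searched as GAAA and GAAA with 2 bases between (3.57%), the NF-kappaB site, searched as GGGA and TTCC with 2 bases between (1.61%), and TGANTCA, bound by AP-1 (7.71%), were searched on both strands and were not in the letters of these 4 windows. Of the 9 windows that RefSeq gives for 8 of the 9 genes, the CYBB window held the interferon-stimulated element at 2 places, as GAAAAGGAAA on its own strand and TTTCATTTTC on the opposite one, and no other window but those of DUOX2 and DUOXA2 held any of these motifs. NOS2 had no window. These matches are letters in a window, not tested sites.

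The other members lie apart. NOS2 is at chr17:27756766-27800499 on the minus strand, CYBA at chr16:88643283-88651152 on the minus strand, NOXO1 at chr16:1978917-1984192 on the minus strand, CYBB at chrX:37780011-37813461 on the plus strand and NOX1 at chrX:100843324-100874345 on the minus strand. All 9 are protein-coding. Values below are exonic read counts scaled to a common library size with TMM factors, written CPM.

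With the ITGB4 plasmid, NOS2 and the 4 DUOX locus genes stood well above the vector level in all 3 libraries, between 2.89-fold for DUOX1 and 10.7-fold for NOS2. CYBA differed 1.10-fold, and CYBB and NOX1 stayed near the detection limit. NOXO1 had few counts, but its exons mostly overlap another gene. In resistant cells NOS2 and the 4 DUOX locus genes stood below parental cells by 2.93-fold for DUOX1 to 14.2-fold for NOS2. Of the 9 members, 6 passed the low-count filter in the first experiment. All 6 had an adjusted p under 0.05 and were higher, beside 72.2% of all 16950 genes tested called and 36.5% called higher. In the second, 7 passed, 6 were called lower and NOX1 was not called, beside 54.5% of 16875 genes called and 27.7% called lower. The groups did not overlap for 6 members in the first experiment, beside 74.5% of genes, and for 5 in the second, beside 60.8%. Since the genes were chosen on these contrasts, nothing is read from these counts.

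NOS2, the inducible nitric oxide synthase, had 164, 154 and 159 CPM in plasmid libraries, from 3667, 3826 and 4982 counts, against 14.2, 14.9 and 15.4 CPM in vector libraries, from 374, 430 and 521 counts. The groups were far apart and each was tight. NOS2 averaged 159 ± 5.16 CPM with the plasmid and 14.8 ± 0.601 CPM with the vector (SD, n = 3 each), a log2 fold change of 3.42 ± 0.041. Of the 16950 genes tested, 104 had an increase as large or larger, NOS2 included.

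In the second experiment NOS2 had 16.0, 17.2 and 17.0 CPM in resistant libraries, from 537, 655 and 656 counts, against 241, 233 and 238 CPM in parental libraries a, b and c, from 8678, 7724 and 8489 counts. The means were 16.7 ± 0.614 CPM in resistant and 237 ± 4.41 CPM in parental cells (SD, n = 3 each), a log2 fold change of -3.82 ± 0.052. Of 16875 genes tested, 17 had a decrease as large or larger, NOS2 included. The parental cells in MEM thus held a NOS2 level of the order seen with the plasmid in McCoy's 5A medium, and the resistant cells a level near that of the vector controls, though the tables were counted separately and no test runs between them.

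**Figure D1:**
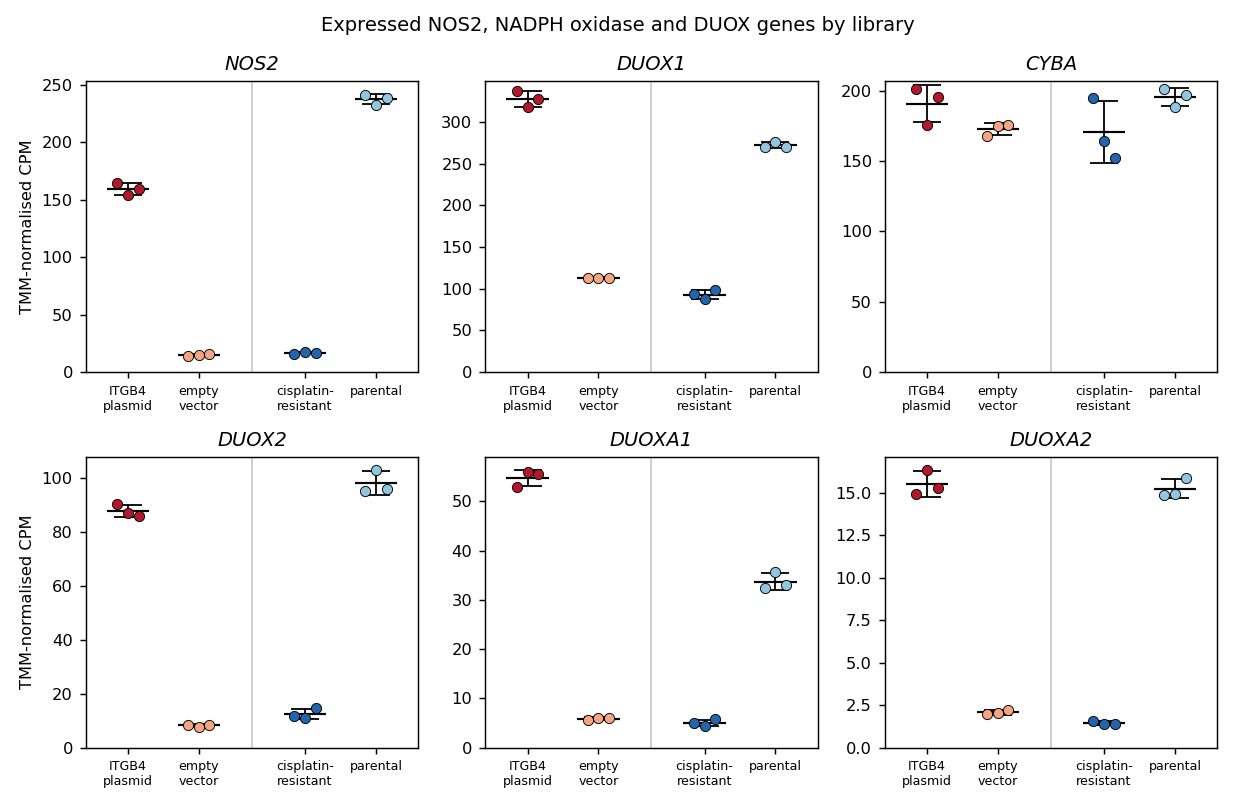
TMM-normalised CPM (linear axes from 0) of the 6 members with substantial counts in each of the 12 libraries; points are libraries, short lines the mean and bars the SD (n = 3). NOS2, DUOX1, DUOX2, DUOXA1 and DUOXA2 are high with the ITGB4 plasmid and low with the empty vector, and low in resistant and high in parental cells, while CYBA lies between 152 and 201 CPM in all.

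DUOX2, the cytokine-inducible dual oxidase, had 90.5, 87.3 and 86.0 CPM in plasmid libraries against 8.51, 7.68 and 8.60 CPM in vector libraries. All plasmid libraries stood above all vector libraries, at means of 87.9 ± 2.33 and 8.26 ± 0.507 CPM (SD, n = 3 each), a 10.6-fold difference. In the second experiment it had 11.8, 11.03 and 14.7 CPM in resistant libraries against 95.2, 103 and 96.2 CPM in parental libraries. Resistant library 3 was the highest of its group, and all 3 lay far below the parental ones (log2 fold change -2.97 ± 0.084).

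DUOXA2, the maturation factor of DUOX2, had the lowest mean level per kilobase of the 4 locus genes in every group. With the vector it was close to DUOX2, at 0.815 against 0.840 CPM per kb. Of its exon bases 28.6% overlap other genes, where reads may not be counted, so its level and rank may be understated. DUOXA2 had 14.9, 16.4 and 15.3 CPM in plasmid libraries against 1.97, 2.05 and 2.22 CPM in vector libraries, from 333 to 480 and 52 to 75 counts. The groups did not overlap, and the log2 fold change was 2.89 ± 0.092. In resistant libraries it had 1.58, 1.42 and 1.37 CPM, from 53, 54 and 53 counts, against 14.9, 14.9 and 15.9 CPM in parental libraries. The difference was 10.5-fold (log2 fold change -3.39 ± 0.13), larger in size than that of DUOX2, its head-to-head neighbour, in the same libraries.

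DUOXA1, the maturation factor of DUOX1, had 52.9, 55.8 and 55.6 CPM in plasmid libraries against 5.62, 6.08 and 5.999 CPM in vector libraries. That is a 9.27-fold difference with no overlap (log2 fold change 3.21 ± 0.054). In the second experiment DUOXA1 had 4.93, 4.46 and 5.77 CPM in resistant libraries against 32.5, 35.7 and 32.9 CPM in parental libraries. The resistant level was 6.66-fold lower (log2 fold change -2.73 ± 0.099).

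DUOX1, the dual oxidase of airway and bladder epithelium, had 336, 318 and 328 CPM in plasmid libraries against 113, 113 and 113 CPM in vector libraries. It was, per kilobase, the most abundant DUOX gene in every group, and it moved least, with a log2 fold change of 1.53 ± 0.028. In the second experiment it had 93.1, 87.3 and 98.1 CPM in resistant libraries against 270, 276 and 270 CPM in parental libraries. The difference was 2.93-fold (log2 fold change -1.55 ± 0.047), close in size to that of the first experiment and opposite in sign.

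**Figure D2:**
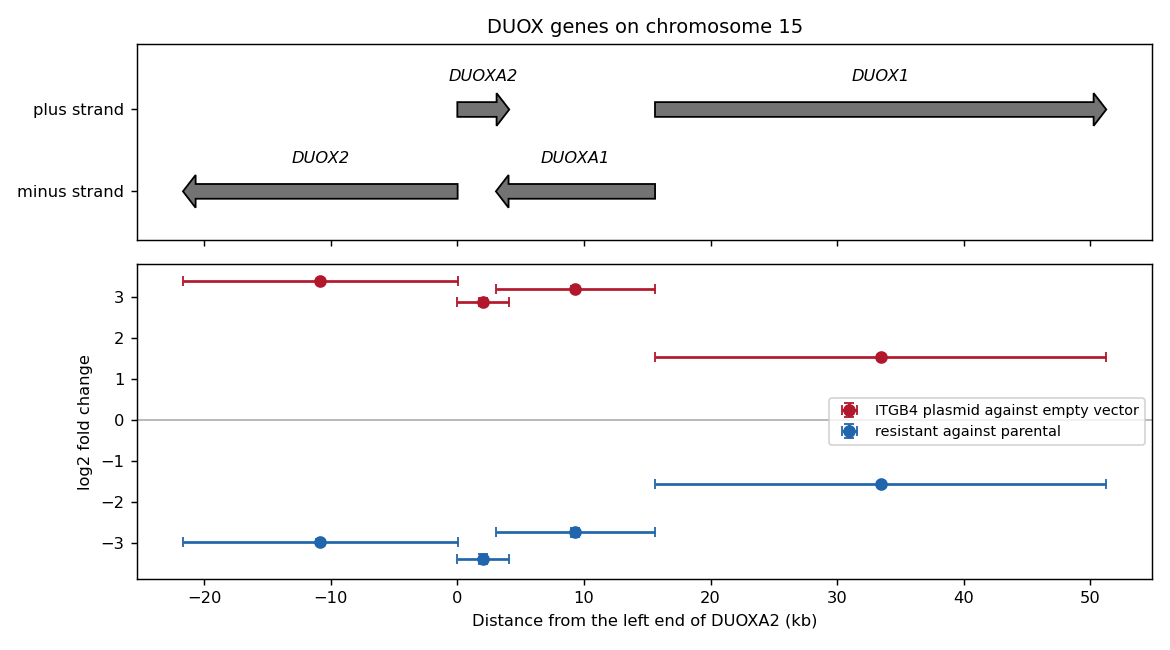
Upper panel, the 4 DUOX genes to scale in kilobases from the left end of DUOXA2, with arrows pointing along transcription. Lower panel, the log2 fold change of each gene in the 2 experiments, with horizontal bars spanning the gene and vertical bars the approximate standard error; DUOX1 lies closest to 0 in both, at 1.53 with the plasmid and -1.55 with resistance.

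The counts of neighbours are not fully separate. In GENCODE 29, DUOXA1 and DUOXA2 share 706 exon bases on opposite strands, 19.0% of the DUOXA1 and 27.6% of the DUOXA2 exon length, and the counts of the first table used no strand, so reads in that stretch cannot be assigned to either gene. DUOX1 and DUOX2 share 450 windows of 50 identical bases, 7.91% of those in the DUOX1 transcript and 6.94% of those in DUOX2, so a small part of their reads may be split between them. The shares of DUOX2 with DUOXA2 (24 bases) and of NOS2 with an overlapping gene (77 bases) are small.

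CYBA, the membrane partner of the NOX enzymes, was abundant and nearly level. It had 201, 176 and 195 CPM in plasmid libraries against 168, 175 and 176 CPM in vector libraries. The lowest plasmid library stood just above the highest vector library, and the log2 fold change was 0.14 ± 0.040. In the second experiment CYBA had 195, 164 and 152 CPM in resistant libraries against 201, 189 and 197 CPM in parental libraries. Resistant library 1 overlapped the parental range, and the log2 fold change of -0.20 ± 0.066 was called but lost its call without parental library a (-0.18), resistant library 2 (-0.17) or resistant library 3 (-0.12). It also lost it when libraries were scaled by total count alone (-0.04).

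NOX1, the colon-type catalytic subunit, was barely expressed. Its 3 plasmid libraries held 3, 6 and 12 counts against 10, 5 and 12 in the vector libraries, a ratio of 0.857 per total count (exact binomial 95% interval 0.461 to 1.57, covering counting error only, as do all such intervals here). In the second experiment it had 1.52, 2.31 and 1.66 CPM in resistant libraries against 1.78, 2.29 and 1.71 CPM in parental libraries. The groups overlapped, and the log2 fold change of -0.07 ± 0.25 turned to 0.09 when libraries were scaled by total count alone.

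CYBB, the phagocyte catalytic subunit, had 25 counts over the plasmid libraries against 26 over the vector libraries, a ratio of 1.06 (interval 0.587 to 1.91). It had 12 counts over the resistant libraries against 5 over the parental libraries, 4 of them in library c, a ratio of 2.56 (interval 0.839 to 9.27). Neither ratio can be told from 1 at this depth. NOXO1, the NOX1 organiser, had 0 counts over plasmid libraries against 2 over vector libraries, and 0 over resistant against 4 over parental libraries, 3 of these in library b. Of its exon bases 98.8% lie under exons of TBL3 on the opposite strand. Reads there may be left uncounted or may come from TBL3. These counts thus show neither presence nor absence of NOXO1 RNA.

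**Figure D3:**
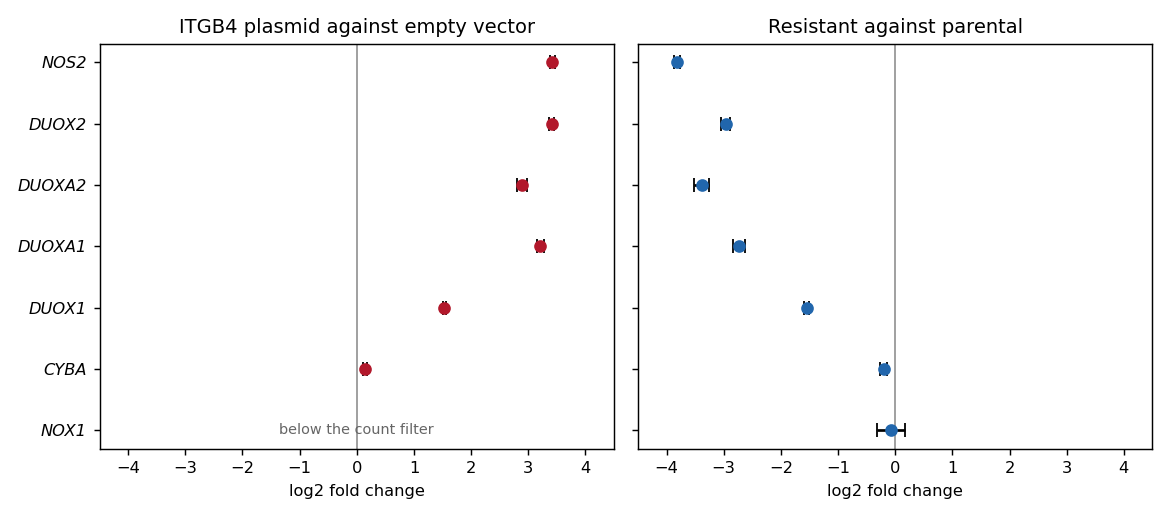
Log2 fold change of the members that passed the low-count filter in at least 1 experiment, with bars for the approximate standard error. NOS2, DUOX2, DUOXA2, DUOXA1 and DUOX1 lie right of 0 with the plasmid and left of 0 with resistance, while CYBA and NOX1 lie near 0.

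Levels were set per kilobase of all annotated exons of a gene, merged. Merged exons exceed the longest coding transcript unevenly, at 3357 against 1415 bases for CYBA and 8784 against 5738 for DUOX1. For DUOX2 they hold 9834 against 6533 bases and for NOS2 4369 against 4176. The order of genes thus depends on the length used, and was not worked out with transcript lengths. CYBA led in every group, at 56.9 CPM per kb with the plasmid, 51.5 with the vector, 50.7 in resistant and 58.3 in parental cells. With the plasmid, DUOX1 (37.3 ± 1.03 CPM per kb) and NOS2 (36.4 ± 1.18) followed and their libraries overlapped. DUOXA1 (14.7), DUOX2 (8.94) and DUOXA2 (6.08) came after them without overlap. With the vector, DUOX1 stood at 12.9, NOS2 at 3.40, DUOXA1 at 1.59 and DUOX2 and DUOXA2 together at 0.840 and 0.815 CPM per kb, with overlapping libraries. In resistant cells DUOX1 stood at 10.6 and NOS2 at 3.83 CPM per kb. DUOXA1 (1.36) and DUOX2 (1.27) overlapped there, and NOX1, at 0.723, was above DUOXA2, at 0.571, with overlapping libraries. In all groups the levels of DUOXA1 and DUOXA2 may be understated, since reads in their shared exon bases may not be counted. In parental cells NOS2, at 54.3 ± 1.01 CPM per kb, exceeded DUOX1, at 31.0 ± 0.406, in all 3 libraries, and DUOX2 (9.99), DUOXA1 (9.06) and DUOXA2 (5.97) came after. Compared within each library, NOS2 went above DUOX1 in no library of the plasmid, vector or resistant groups.

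Among all genes with a length, NOS2 stood above 92.6% of 16617 genes per kilobase with the plasmid and above 49.5% with the vector. It stood above 52.2% of 16320 genes in resistant cells and above 94.9% in parental cells. DUOX2 stood above 69.7% of genes with the plasmid and 25.3% with the vector, and above 33.1% in resistant and 72.1% in parental cells.

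The make-up of the DUOX pair differed between groups. Per kilobase, DUOX1 exceeded DUOX2 by 4.17 ± 0.0919 with the plasmid and by 15.4 ± 0.996 with the vector (ratio within a library, SD, n = 3 each). The ratio was 8.38 ± 0.809 in resistant cells and 3.10 ± 0.0973 in parental cells, so the groups with high DUOX levels had the lower ratio, with no overlap between the groups of either experiment. DUOX1 to its maturation factor DUOXA1 was 2.54 ± 0.144 with the plasmid and 8.13 ± 0.355 with the vector, and 7.83 ± 0.561 in resistant and 3.42 ± 0.131 in parental cells. DUOX2 to DUOXA2 ranged less, at 1.47 ± 0.0963 with the plasmid and 1.03 ± 0.0762 with the vector, and 2.25 ± 0.473 in resistant and 1.68 ± 0.113 in parental cells. NOS2 to DUOX2 was 4.07 ± 0.0945 with the plasmid and 4.06 ± 0.311 with the vector, whose libraries overlapped, and 3.05 ± 0.460 in resistant and 5.45 ± 0.336 in parental cells, which did not. These ratios rest on the contrasts the genes were chosen by and are not tested. The size of every ratio also rests on the merged exon lengths. For DUOXA1 and DUOXA2, part of that length may yield no counted reads.

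**Figure D4:**
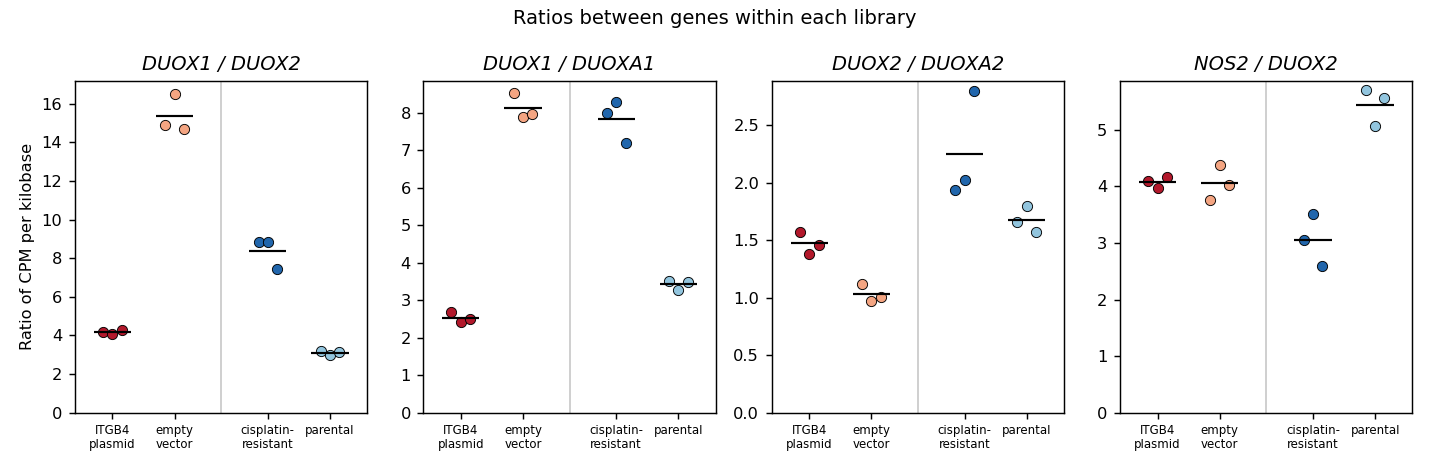
Ratios of CPM per kilobase between 2 genes in each library (linear axes from 0; points are libraries, lines group means). DUOX1 over DUOX2 and DUOX1 over DUOXA1 are lowest where DUOX levels are high (plasmid, parental), and NOS2 over DUOX2 lies near 4 in both arms of the first experiment.

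Over the 12 libraries, each centred on the controls of its own experiment, the closest pair of members was DUOX2 and DUOXA1, whose log2 profiles differed by a root mean square of 0.200. DUOXA1 and DUOXA2 differed by 0.321 and DUOX2 and NOS2 by 0.440, while DUOX1 differed from DUOX2 by 1.14. Of the 12872 genes compared, members included, the nearest to NOS2 outside the members was CSF3 (0.526), the neutrophil growth factor G-CSF. SERPINB7 (0.625), a serine protease inhibitor, and PI3 (0.625), the elastase inhibitor elafin, came next. CSF3 itself had log2 fold changes of 6.29 with the plasmid and -4.94 with resistance, both larger in size than those of NOS2. SERPINB7 and PI3 had log2 fold changes of -5.43 and -4.72 with resistance. The pseudocount of 0.5 CPM shrinks changes that start or end near 0 CPM. A small distance thus does not mean equal fold changes. STOM (0.356), encoding the membrane protein stomatin, and SPRR1A (0.410), encoding a cornified envelope protein, were nearest to DUOX2. The same 2 genes were nearest to DUOXA1, at 0.194 and 0.250. DUOXA2 was nearest to TNFRSF1B (0.212), a TNF receptor, and to the long non-coding RNAs LINC02015 (0.255) and LUCAT1 (0.322). DUOX1 was nearest to CTSS (0.0845), the protease cathepsin S, GBP3 (0.128), an interferon-inducible GTPase, and EXOC3L4 (0.128). Among the 3 genes nearest to CYBA were CTSD (0.0473), the protease cathepsin D, and CPTP (0.0478), a lipid transfer protein, neither of which changed by more than 0.27 on the log2 scale. These distances describe 4 group levels and carry no test.

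Beyond the 9 members, 102 genes of 6 lists around the same chemistry were tested with edgeR over all genes. In the first experiment 86 passed the filter, 35 being higher and 37 lower with the plasmid, with a median log2 fold change of -0.03 (-0.02 without plasmid library 3) against 0.0017 over all genes. In the second, 84 passed, 20 being higher and 44 lower in resistant cells, with a median of -0.28 against 0.018 over all genes. The plasmid change differed from the resistance change for 65 of 85 of them, 40 of these differences being positive, beside 61.8% of 18516 genes called. Over all genes tested, 36.5% were called higher and 35.7% lower with the plasmid. In resistant cells 26.8% were called higher and 27.7% lower. The list counts here and below are to be read beside these shares.

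Of the 9 tested NADPH oxidase subunits and regulators outside the members, 7 rose and 1 fell with the plasmid, with a median log2 fold change of 0.73. Without vector library 2, 8 were called higher and 0 lower, with a median of 1.25. RAC2, the small GTPase of phagocyte oxidases, rose to 3.74 ± 0.330 CPM with the plasmid against 1.16 ± 0.182 CPM with the vector. CYBC1, a chaperone of the CYBA and CYBB pair, rose by 0.53 on the log2 scale and RAC1, a GTPase that activates NOX enzymes, by 0.30. In resistant cells 0 of 7 tested rose and 4 fell, with a median of -0.31, or of -0.17 over 8 tested genes without either parental library a or resistant library 2. RAC1 (-0.31) and CYBC1 (-0.37) fell slightly, and NCF1 (p47phox), the organiser of the CYBB complex, fell to 0.261 ± 0.0530 CPM against 3.24 ± 0.545 CPM in parental cells (log2 fold change -3.61 ± 0.30; edgeR, adjusted p = 1.5e-08). NCF1 has near-identical pseudogene copies, so its counts are uncertain. NOX3 had 0 counts in all 12 libraries and NOX4 had 1.

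**Figure D5:**
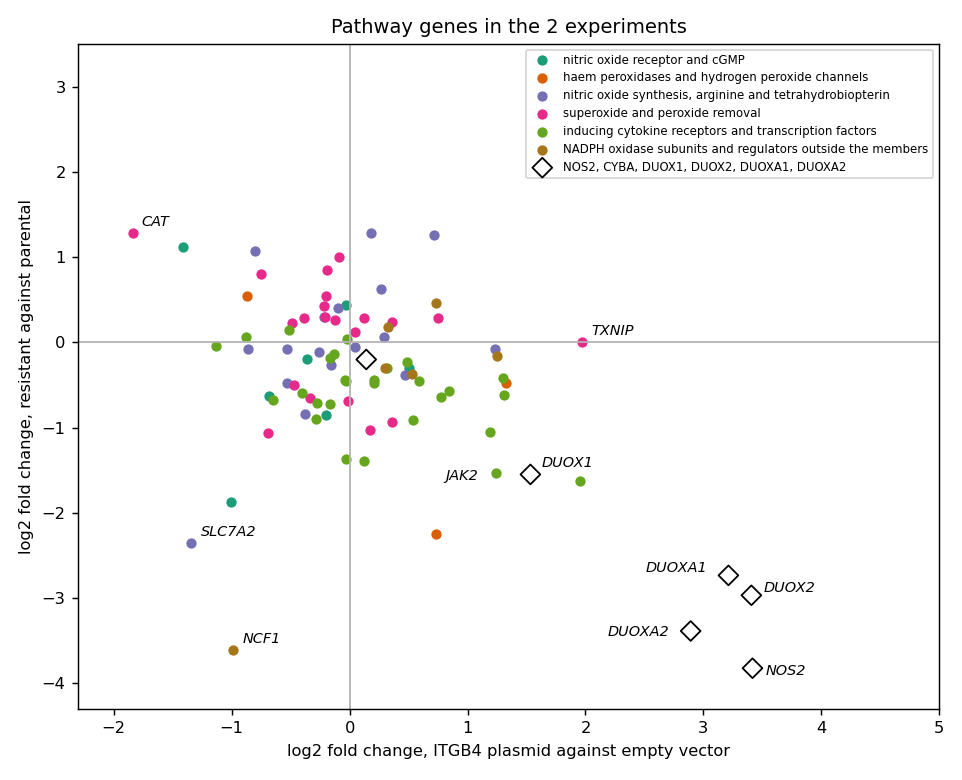
Log2 fold change with the ITGB4 plasmid (horizontal) and with resistance (vertical) of the genes of the 6 lists tested in both experiments and reported here, coloured by list, with 6 members as open diamonds. The DUOX genes and NOS2 lie at the lower right, CAT at the upper left (-1.84 and 1.28), and SLC7A2 and NCF1 at the lower left.

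Genes of arginine and cofactor supply moved both ways. Of 17 tested genes of nitric oxide synthesis, arginine and tetrahydrobiopterin metabolism, 6 rose and 9 fell with the plasmid, and 6 rose and 6 fell in resistant cells. Without vector library 3, 3 rather than 6 were called higher with the plasmid. SLC7A2, a cationic amino acid transporter that brings in arginine, had 73.4, 76.4 and 79.4 CPM in plasmid libraries against 193, 194 and 194 CPM in vector libraries (log2 fold change -1.34 ± 0.031; edgeR, adjusted p = 5.44e-16). It had 41.4, 44.0 and 50.4 CPM in resistant libraries against 232, 231 and 234 CPM in parental libraries (-2.36 ± 0.060; adjusted p = 4.01e-15), and so fell in both. SLC7A1, the related transporter, fell by 0.86 on the log2 scale with the plasmid and had a log2 fold change of -0.07 in resistant cells, which was not called. ASS1, which rebuilds arginine from citrulline, fell in both, with log2 fold changes of -0.53 and -0.47. CALM3, one of the calmodulin genes, rose by 0.47 with the plasmid and fell by 0.39 in resistant cells. GCH1, the first enzyme of the NOS cofactor tetrahydrobiopterin, fell in both, with log2 fold changes of -0.38 ± 0.044 with the plasmid and -0.84 ± 0.055 in resistant cells. ARG2, an arginase, fell to 12.2 ± 0.427 CPM with the plasmid against 21.2 ± 0.521 CPM with the vector and rose to 21.4 ± 0.644 CPM in resistant against 10.2 ± 0.581 CPM in parental cells. Scaled by total count alone, the list's median in the second experiment went to 0.09, against -0.07 with TMM factors, and it lay between -0.05 and -0.04 without parental library b or resistant library 1 or 3.

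On the receiving side, 7 genes of nitric oxide sensing, cGMP and glutathione or nitrosoglutathione reduction were tested, the last being ADH5, GSR and CBR1. With the plasmid 1 rose, which was CBR1, and 5 fell, and in resistant cells 2 rose and 4 fell. GUCY1B1, the haem-binding subunit of soluble guanylate cyclase, fell to 5.55 ± 0.198 CPM with the plasmid against 11.2 ± 0.395 CPM with the vector, and to 7.83 ± 0.379 CPM in resistant against 28.7 ± 0.988 CPM in parental cells. Its partner GUCY1A1 fell by 0.20 on the log2 scale with the plasmid and by 0.86 in resistant cells. PRKG2, a cGMP-dependent kinase, went opposite ways, with log2 fold changes of -1.41 ± 0.13 with the plasmid and 1.11 ± 0.23 in resistant cells (edgeR, adjusted p = 5.83e-08 and 0.00044). GSR, glutathione reductase, fell in both (-0.68 and -0.63). CBR1, a carbonyl reductase that also acts on nitrosoglutathione, rose by 0.50 with the plasmid and fell by 0.30 in resistant cells. ADH5, the nitrosoglutathione reductase, rose by 0.44 in resistant cells and had a log2 fold change of -0.03 with the plasmid, which was not called.

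In the list for superoxide and peroxide removal, which also holds the thioredoxin inhibitor TXNIP, more genes fell than rose with the plasmid. In resistant cells more rose than fell. With the plasmid 6 of 21 tested rose and 12 fell (median -0.19), beside 36.5% and 35.7% of all genes. In resistant cells 12 of 21 rose and 6 fell (median 0.27), beside 26.8% and 27.7% of all genes. In the test for changes over 1.5-fold, 1 rose and 3 fell with the plasmid, and 3 rose and 3 fell in resistant cells. CAT, catalase, had 119, 123 and 111 CPM in plasmid libraries against 424, 423 and 416 CPM in vector libraries (log2 fold change -1.84 ± 0.033; edgeR, adjusted p = 1.5e-17). In resistant libraries it had 212, 217 and 201 CPM against 87.9, 86.3 and 85.7 CPM in parental libraries (1.28 ± 0.045; adjusted p = 2.03e-13). The groups did not overlap in either experiment, and the 2 changes differed by -3.14 ± 0.055 (adjusted p = 2.23e-20).

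GPX8, a glutathione peroxidase of the endoplasmic reticulum, changed in the same directions as CAT. It fell to 27.3 ± 1.10 CPM with the plasmid against 45.9 ± 0.788 CPM with the vector, and rose to 6.90 ± 0.256 CPM in resistant against 3.94 ± 0.737 CPM in parental cells. TXNRD1, thioredoxin reductase, fell in both experiments (-0.69 and -1.07). SOD2, the mitochondrial superoxide dismutase, rose by 0.17 on the log2 scale with the plasmid and fell to 1030 ± 47.9 CPM in resistant against 2109 ± 21.5 CPM in parental cells. TXN, thioredoxin, fell by 0.69 in resistant cells and had a log2 fold change of -0.01 with the plasmid, which was not called. TXNIP, the thioredoxin-binding inhibitor, rose to 536 ± 11.1 CPM with the plasmid against 137 ± 4.18 CPM with the vector, and stood at 1092 ± 42.1 CPM in resistant against 1092 ± 8.73 CPM in parental cells. The 2 TXNIP changes differed by 1.95 ± 0.047 (edgeR, adjusted p = 2.92e-18).

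Peroxidases that use hydrogen peroxide were scarce. Of 9 genes of haem peroxidases and peroxide-conducting aquaporins, 3 passed the filter in each experiment, all of them aquaporins. AQP3, an epithelial aquaglyceroporin that passes hydrogen peroxide, rose to 208 ± 6.52 CPM with the plasmid against 82.7 ± 1.66 CPM with the vector, and fell to 144 ± 10.7 CPM in resistant against 201 ± 5.17 CPM in parental cells. AQP11, an intracellular aquaporin, fell by 0.87 on the log2 scale with the plasmid and had a log2 fold change of 0.55 in resistant cells, which was not called. LPO, lactoperoxidase, and MPO, myeloperoxidase, were below the filter in both.

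Receptors and transcription factors known to induce NOS2 or the DUOX genes were tested as a list of 29. With the plasmid 14 rose and 9 fell. The median of 0.12 moved with single libraries, to 0.0022 without plasmid library 1, 0.21 without plasmid library 2 and 0.066 without vector library 1. In resistant cells 0 rose and 22 fell (median -0.55), and 1 rose without either parental library c or resistant library 1. With scaling by total count alone 2 rose and 21 fell. Between the experiments 22 differed in the positive direction and 3 in the negative, beside 30.2% and 31.6% of all genes. JAK2, a kinase of the interferon-gamma receptor, had 59.6, 69.4 and 64.0 CPM in plasmid libraries against 26.8, 28.1 and 26.9 CPM in vector libraries. It had 25.8, 27.4 and 28.2 CPM in resistant libraries against 78.2, 79.0 and 79.2 CPM in parental libraries. Its changes, 1.24 ± 0.051 with the plasmid and -1.54 ± 0.057 with resistance, differed by 2.75 ± 0.075 (edgeR, adjusted p = 2.55e-17).

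STAT2, a transcription factor of the type I interferon response, rose to 645 ± 2.78 CPM with the plasmid against 262 ± 0.949 CPM with the vector and fell to 560 ± 40.3 CPM in resistant against 746 ± 5.19 CPM in parental cells. Its 2 changes differed by 1.69 ± 0.053 (edgeR, adjusted p = 2.49e-16). TLR3, the sensor of double-stranded RNA, rose by 1.19 with the plasmid and had a log2 fold change of -1.05 in resistant cells. STAT6, which relays interleukin 4 and 13, rose by 0.84 with the plasmid and fell by 0.57 in resistant cells. IFNGR1, the ligand-binding chain of the interferon-gamma receptor, fell to 210 ± 2.92 CPM in resistant against 392 ± 1.06 CPM in parental cells, and IRF1, a transcription factor of the interferon-gamma response, to 144 ± 9.41 against 272 ± 3.80 CPM. With the plasmid IFNGR1 fell by 0.28 on the log2 scale and IRF1 rose by 0.54. IL22RA1, the interleukin 22 receptor chain, named after its values were seen, rose by 1.96 with the plasmid and had a log2 fold change of -1.63 in resistant cells. The 3 genes of this list whose changes differed in the negative direction were IL1R1 (-1.12), IL17RC (-0.96) and IL13RA1 (-0.68). Whether any of these genes acts on NOS2 or the DUOX genes in RT4 cells was not tested.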

How the data were processed

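The authors deposited raw read counts per gene, 1 table per experiment. Per the file headers, read pairs of the overexpression libraries were counted over exons with featureCounts 2.0.1 and Ensembl release 107, from alignments named hisat, with no strand option. For the resistance table, aligner, counter and strand setting: not given in the sources used here. Per the submitters' processing notes, both used hg38. Libraries came from a strand-marking kit, per the labels' protocols.

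Groups follow the titles. The parental columns are headed NC, which no parental title holds. They were taken as parental, an inference, since the resistant columns stand in the same table, and are called a, b and c. No 2 replicates agreed within sampling noise (chi-square per degree of freedom 1.54 to 12.2). Nothing says that replicates were separate cultures, so p-values measure a spread among libraries that may be technical only. The common biological coefficient of variation was 2.65% and 6.97%.

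Each experiment was fitted by itself over genes passing filterByExpr, scaled by TMM, with edgeR 4.0.16 (glmQLFTest; limma 3.58.1, R 4.3.3). P-values were adjusted by Benjamini and Hochberg's method over every gene tested, at a threshold of 0.05. A joint fit of the 12 libraries over genes of both tables tested whether the plasmid and resistance changes differed. CPM per kb uses the GENCODE 29 length of all annotated exons of a gene, merged. The fits were tested on simulated data. The symbol table held 61757 of the 61860 identifiers of the overexpression table and all 62700 of the other. SOD2 was matched in the overexpression table by a GENCODE 29 identifier that the other table lacks, so it is not in the difference fit.

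The 9 members and the 6 lists were chosen with earlier results of these data known. Named list genes are up to 4 called genes per list and experiment with the smallest p and a mean of at least 1 CPM, the 6 with the smallest p for the difference, and the 3 nearest profiles per member. Some genes that this rule takes are not reported here. Profiles are log2 CPM with a pseudocount of 0.5. Alternatives were RLE size factors, total counts alone, limma-voom, DESeq2 1.42.0, no filter or a mean of 1 CPM, a test for changes over 1.5-fold, a replicate block and fits without each library.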

Additional observations from a re-analysis of the deposited data

Results flagged for a closer look

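For 5 of the 9 members every plasmid library lay above every vector library while every resistant library lay below every parental library. Groups without overlap, in either direction, were common among all genes tested, at 74.5% in the first experiment and 60.8% in the second. The share of all genes that were without overlap in both, in opposite directions, was not worked out. The log2 change with the plasmid minus the log2 change with resistance was 7.22 for NOS2, 6.35 for DUOX2, 6.26 for DUOXA2, 5.92 for DUOXA1 and 3.06 for DUOX1. These genes were chosen on the same contrasts, so the differences are a description and were not tested. The experiments also differ in culture medium, per the labels' protocols, and the part of the medium in the difference cannot be told apart. Nor can the part of the labelled cisplatin treatment be told from that of resistance.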

How the results depend on the processing

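The members that passed the filter kept their direction under every alternative run except NOX1, which was never called, and their calls except CYBA, which lost its call in the second experiment as given above and in both under the 1.5-fold test. Scaling by total counts alone moved the median log2 fold change of all genes in the second experiment to 0.18, against 0.018 with TMM factors, so that 6548 genes were higher and 3111 lower, against 4520 and 4679. NOS2 then stood at -3.66, DUOXA2 at -3.22 and DUOX1 at -1.39, and 1.49 for DUOX1 in the first experiment. Pathway counts then reached 27 higher in the second experiment, within 1.5 times the 20 above.

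A test for changes over 1.5-fold left 1880 genes higher and 1938 lower with the plasmid, with 15 and 12 pathway genes, and 1042 higher and 1065 lower in resistant cells, with 7 and 19 pathway genes. Of the named list genes, 12 calls were lost under that test alone.

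Leaving out 1 library at a time gave 5897 to 6207 genes higher and 5771 to 6182 lower with the plasmid, with 32 to 35 and 34 to 37 pathway genes. It gave 4007 to 4433 higher and 4293 to 4624 lower in resistant cells, with 20 to 21 and 42 to 45 pathway genes, and 65 to 68 pathway genes that differed between the experiments.

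Deviations of plasmid and vector libraries with the same number correlated at -0.104, -0.128 and -0.0834 over 9404 genes, so no pairing by number was visible. Deviations from a mean of 3 libraries cannot exclude one. A replicate block called 6105 genes higher and 5965 lower, with 34 and 37 pathway genes. No paired analysis was possible because the parental columns carry no sample number in the second experiment. Few counts limit CYBB and NOX1, and the overlap with TBL3 limits NOXO1.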
